A study of Mus musculus with 19 samples.

Results

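The 8 genes described here, Isl1, Isl2, Mnx1, Lhx3, Lhx4, Foxp1, Lmo4 and Ebf2, encode factors known from the specification of spinal motor neurons, and were chosen by symbol as 8 of the 50559 genes in the count table. Ribosome-bound mRNA was isolated from spinal cord cholinergic neurons of 10-week-old wild-type male C57BL/6J mice that carried ChAT-Cre and RiboTag fx/+, an allele that puts a hemagglutinin (HA) tag on a ribosomal protein wherever Cre has acted. Precipitating the tag (immunoprecipitation, IP) recovers mRNA bound to ribosomes of cells in which Cre was active. Cords were taken every 4 h from ZT0 to ZT20 (Zeitgeber time, hours after lights on in a 12:12 light/dark cycle), which gave 6 time points with 3 biological replicates each and 1 cord per library, so p-values over time measure the spread between cords. These 18 IP libraries were set against 1 input library, a pool of RNA from cord homogenate before precipitation, for which the sources used here do not name the animals. All mice shared genotype, sex and age, and time of day was the only difference between the groups that the sample labels record. The driver acts in every cell with an active or past Chat promoter, so the IP mixes somatic motor neurons with autonomic preganglionic neurons and cholinergic interneurons, and the libraries do not separate motor columns or pools.

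The sequencing depth was 6302150 to 22406844 counts per IP library and 15239792 counts in the input. Over the 15572 genes tested across time, the median coefficient of variation (CV, SD over mean) was 21.3% among the 18 libraries. Summed CPM (the usual depth-scaled read count, in which a gene's count is divided by its library's total, here after TMM, a scaling between libraries) of 6 cholinergic neuron markers was 4417 to 5178 in the IPs and 451.5 in the input. Prph made up most of this sum, with a mean of 2987 CPM over the 18 IPs, whereas Chat had a mean of 39.6. Chat itself lay above the input in 17 of 18 IPs, and the other 5 markers did so in all 18. Summed oligodendrocyte markers (7 genes) were at 1524 to 2903 CPM in the IPs against 20880 in the input, astrocyte markers (6 genes) at 132.5 to 205.2 against 2874, microglial markers (6 genes) at 8.39 to 15.4 against 162, endothelial markers (4 genes) at 6.78 to 13.3 against 91.9, sensory neuron and Schwann cell markers (6 genes) at 40.6 to 93.6 against 837.3, and erythrocyte markers (4 genes) at 210.7 to 756 against 1975. Inhibitory neuron markers (4 genes) were at 248.1 to 347 CPM against 804.1, excitatory neuron markers (3 genes) at 42.4 to 77.0 against 163.6, and markers of cerebrospinal fluid-contacting neurons (2 genes) at 1.96 to 7.19 against 14.5. Among the inhibitory markers, Gad1 stayed near the input, at a mean of 128 CPM against 137.1, with 4 of 18 IPs above it.

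Newborn motor neurons acquire their identity through LIM-homeodomain proteins. Isl1 and Lhx3 assemble with the cofactor Ldb1 into a complex that activates motor neuron genes, including those for acetylcholine synthesis and transport, while Mnx1 (also called HB9) represses interneuron programs. Other factors then divide motor neurons into columns, with Foxp1 marking limb-innervating and preganglionic columns and Lhx3 the medial column that innervates axial muscle.

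All 8 genes are protein-coding. Positions were read from the RefSeq annotation of GRCm38.p6 (mm10) and count from 1. Isl1 lies at chr13:116298270-116309688 on the minus strand, Isl2 at chr9:55538677-55547667 on the plus strand and Mnx1 at chr5:29473823-29478470 on the minus strand. Lhx3 lies at chr2:26200212-26208249 and Lhx4 at chr1:155698031-155751726, both on the minus strand. Foxp1 (chr6:98925342-99522746) and Lmo4 (chr3:144188530-144205255) are on the minus strand and Ebf2 (chr14:67233292-67430952) on the plus strand. Counts were summed over all exons of a gene, so they do not separate its isoforms. In GENCODE M21 these genes have from 2 (Isl1, Isl2, Mnx1, Lhx3 and Lhx4) to 20 (Foxp1) coding transcripts.

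The first comparison asked which of these developmental factors were still on the ribosomes of adult cholinergic neurons, relative to the whole cord. A gene was called enriched or depleted where mean IP CPM differed from the input at least 2-fold and all 18 IPs lay on that side. With a single input library there was no test, and the intervals given are exact 95% Poisson intervals of the input, which cover counting error only. By this rule, 6 of the 8 factors were enriched, against 13.9% of the 17901 genes compared. Ebf2 alone among them was depleted, against 23.0% of genes, and Foxp1 was neither. The median log2 ratio was 2.52 for the 8 factors and -0.08 for all genes compared.

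Mnx1 had the highest ratio of the 8. Its level was 28.9 ± 2.60 CPM in the IPs (SD, n = 18, range 23.8 to 35.5) and 1.59 CPM in the input (interval 1.07 to 2.27, from 30 counts), which is 18.2-fold (12.7 to 27.0). The lowest IP was still 15.0-fold above the input, and 99.8% of genes had a lower ratio. Lhx4, a LIM-homeodomain protein that acts beside Lhx3 in early motor neurons, followed at 8.60-fold (7.27 to 10.2), with 62.3 ± 4.72 CPM in the IPs against 7.25 (6.08 to 8.56). Isl2, a close relative of Isl1, was at 6.71-fold (5.81 to 7.79), with 66.0 ± 6.08 CPM against 9.84 (8.47 to 11.4). The intervals of these last 2 ratios overlap, so their order is not resolved. Lhx3, the medial column factor, was at 6.27-fold (4.22 to 9.79), with 7.96 ± 1.66 CPM against 1.27 (0.813 to 1.89, from 24 counts). Isl1, which is also needed in other neurons, was at 5.24-fold (4.02 to 6.98), with 15.0 ± 3.31 CPM against 2.86 (2.15 to 3.73).

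**Figure D1:**
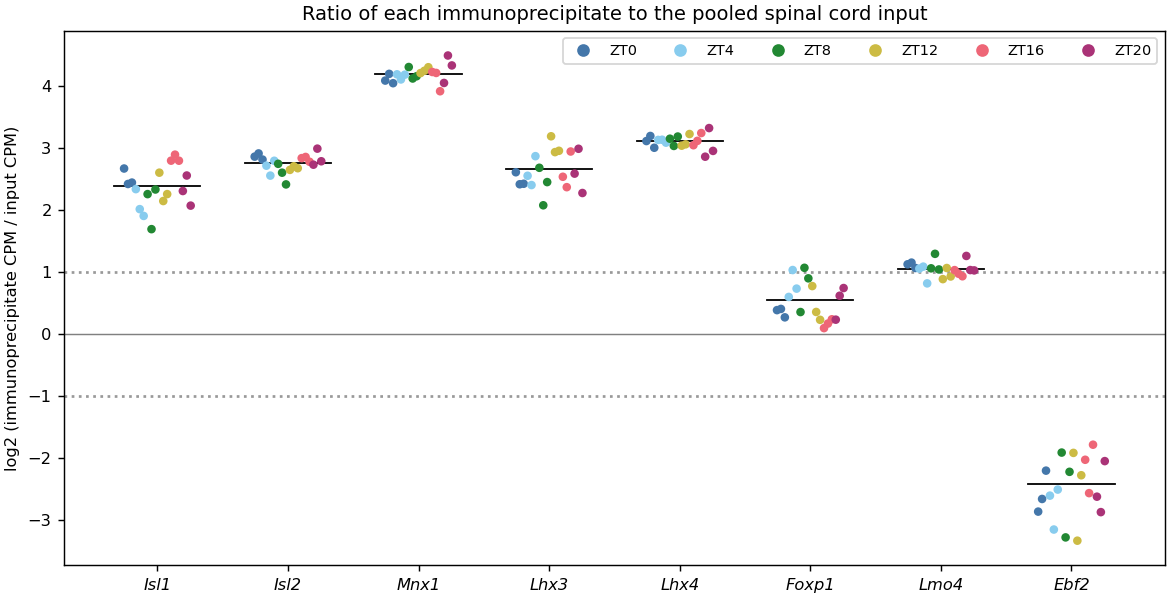
Log2 ratio of each IP library to the pooled input for the 8 factors. Each point is 1 of 18 libraries coloured by time point, black lines are the log2 ratios of the mean CPM and dotted lines mark 2-fold; Mnx1 sits highest at a log2 ratio of 4.19, all 18 Foxp1 points lie above 0 and most of them under the 2-fold line, and all 18 Ebf2 points are below 0.

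Lmo4 and Foxp1 were nearer to the input. Lmo4, a LIM-only protein that binds Ldb1 without binding DNA, was at 63.5 ± 5.26 CPM in the IPs against 30.7 (28.2 to 33.3), a ratio of 2.07-fold (1.91 to 2.25) that is just inside the 2-fold rule. Its lowest IP was 1.76-fold and its highest 2.45-fold above the input. Foxp1, the next factor and outside the rule, was at 23.2 ± 5.09 CPM against 15.9 (14.2 to 17.8), or 1.46-fold (1.3 to 1.64), with the 18 IPs between 1.07-fold and 2.09-fold. All 18 IPs lay above the input for Foxp1, as they did for 25.8% of genes. Lmo4 lost its call when libraries were scaled by their totals, by the upper quartile or by the size factors of DESeq2, which left 5 factors enriched.

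Ebf2, a helix-loop-helix factor of differentiating neurons that is also active in adipose tissue, was 5.33-fold lower in the IPs (interval 4.68 to 6.06), at 2.37 ± 0.746 CPM against 12.6 (11.1 to 14.4). Every IP was below the input, the highest at 0.291 of it, as for 32.2% of genes. In counts it stood at 12 to 58 per IP library against 239 in the input. In a ratio of this kind, fewer cells expressing a gene and less RNA per expressing cell cannot be told apart. The erythrocyte, endothelial, astrocyte and oligodendrocyte markers were depleted in the same libraries, and their part in the Ebf2 ratio was not tested.

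Levels were compared between genes per kilobase of exon (CPM per kb, union of GENCODE M21 exons). Isl2 was the highest at 30.1 ± 2.77 CPM per kb (SD, n = 18), followed by Lmo4 at 18.0 ± 1.49, Mnx1 at 12.8 ± 1.16 and Lhx4 at 10.9 ± 0.823. Below them came Isl1 at 3.78 ± 0.836, Lhx3 at 2.62 ± 0.545, Foxp1 at 1.69 ± 0.370 and Ebf2 at 0.342 ± 0.108. The ranges of Isl2 and Lmo4, of Lhx4 and Isl1, and of Foxp1 and Ebf2 did not overlap, whereas those of the other neighbours in this order did. Within libraries, Mnx1 was above Lhx4 in 17 of 18, Isl1 above Lhx3 in 17 and Lhx3 above Foxp1 in 16. With the longest coding transcript as the length, Lmo4 (38.0 ± 3.15 CPM per kb) came before Isl2 (35.6 ± 3.28) in 13 of 18 libraries, and the other genes kept their places.

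The promoter of Isl1, whose time course is described below, is shown beside that of its relative Isl2, the only window of these genes with a whole cAMP response element. RefSeq entries for GRCm38.p6 matched 7 of the 8 genes with 12 start sites (Ebf2 had no entry used here). The bases upstream of the start of each, 5′ to 3′ on the gene's strand, run at chr13:116309690-116309938 (minus strand) for Isl1 and chr9:55540899-55541147 (plus strand) for Isl2. Capitals mark TGACG, the core of the cAMP response element (CRE), on either strand, and in Isl2 also the whole palindromic element TGACGTCA, which contains that core on both strands.
Isl1: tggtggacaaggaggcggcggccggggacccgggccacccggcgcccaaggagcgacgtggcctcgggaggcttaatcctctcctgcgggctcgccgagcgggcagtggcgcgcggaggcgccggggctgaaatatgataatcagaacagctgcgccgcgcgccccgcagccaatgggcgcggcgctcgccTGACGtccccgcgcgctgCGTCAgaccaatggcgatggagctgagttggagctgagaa
Isl2: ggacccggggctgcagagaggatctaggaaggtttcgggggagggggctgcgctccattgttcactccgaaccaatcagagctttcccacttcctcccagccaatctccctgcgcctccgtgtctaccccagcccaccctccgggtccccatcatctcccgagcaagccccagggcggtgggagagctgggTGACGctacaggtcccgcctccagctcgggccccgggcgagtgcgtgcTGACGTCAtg
The Isl1 window held 2 cores, 59 and 41 bases before the start, and no whole element. In the Isl2 window, a single core stood 59 bases before the start and the whole element 11 bases before it. Of 32851 RefSeq promoter windows of 250 bases, 17.8% held the core and 1.55% the whole element. Among the 12 windows of these genes, 5 held the core, 1 each of Isl1, Isl2, Lhx3, Lhx4 and Foxp1. Some of the 12, that of Isl2 included, lie inside the RefSeq span of their gene, and some Lmo4 windows overlap each other. None of the 12 held the clock elements CACGTG (E-box, 6.02% of all windows), TTATGTAA (D-box, 0.819%) or AGGTCA (bound by ROR receptors, 14%), and 1 Foxp1 window held the homeodomain motif TAATTA (4.84%). The CRE was added to the search after the sequences had been read, and a match is a description of letters.

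The second comparison followed the 8 factors over the day. All 8 passed the filter on low counts. None was rhythmic by JTK_Cycle with Benjamini-Hochberg adjustment over all genes (background 0.0385%). With the adjustment within the gene alone, 3 of 8 had p under 0.05, against 15.8% of genes. These were Isl1 and Isl2 (JTK_Cycle p = 0.0122 each, by the exact null distribution) and Foxp1 (p = 0.0264), and after adjustment over all genes their values were 0.148, 0.148 and 0.203. For each of these genes the best-fitting period was 20 h, the shortest of the periods of 20, 24 and 28 h tried. A 24-h cosinor in edgeR called none of the 8 (background 6.24%), and 3 had an unadjusted p under 0.05, against 26.7% of genes. The lowest edgeR adjusted p of the cosinor was 0.0808 for Isl1 (amplitude 0.28 on the log2 scale, peak at ZT17.6), followed by 0.0835 for Isl2 (0.14, ZT20.4) and 0.106 for Foxp1 (0.25, ZT5.59). DESeq2, which gave Ebf2 no adjusted p, called 2 of the 8 in the same cosinor, Isl1 (adjusted p = 0.0359) and Isl2 (adjusted p = 0.0352), against 20.9% of genes. For any difference among the 6 time points edgeR called none (background 6.74%), with adjusted p = 0.0692 for Isl1 and 0.0949 for Foxp1. These 2 genes also had an unadjusted p under 0.05, as did 23.7% of genes, and both were called by DESeq2 (adjusted p = 0.0147 and 0.0269) along with 19.5% of genes.

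**Figure D2:**
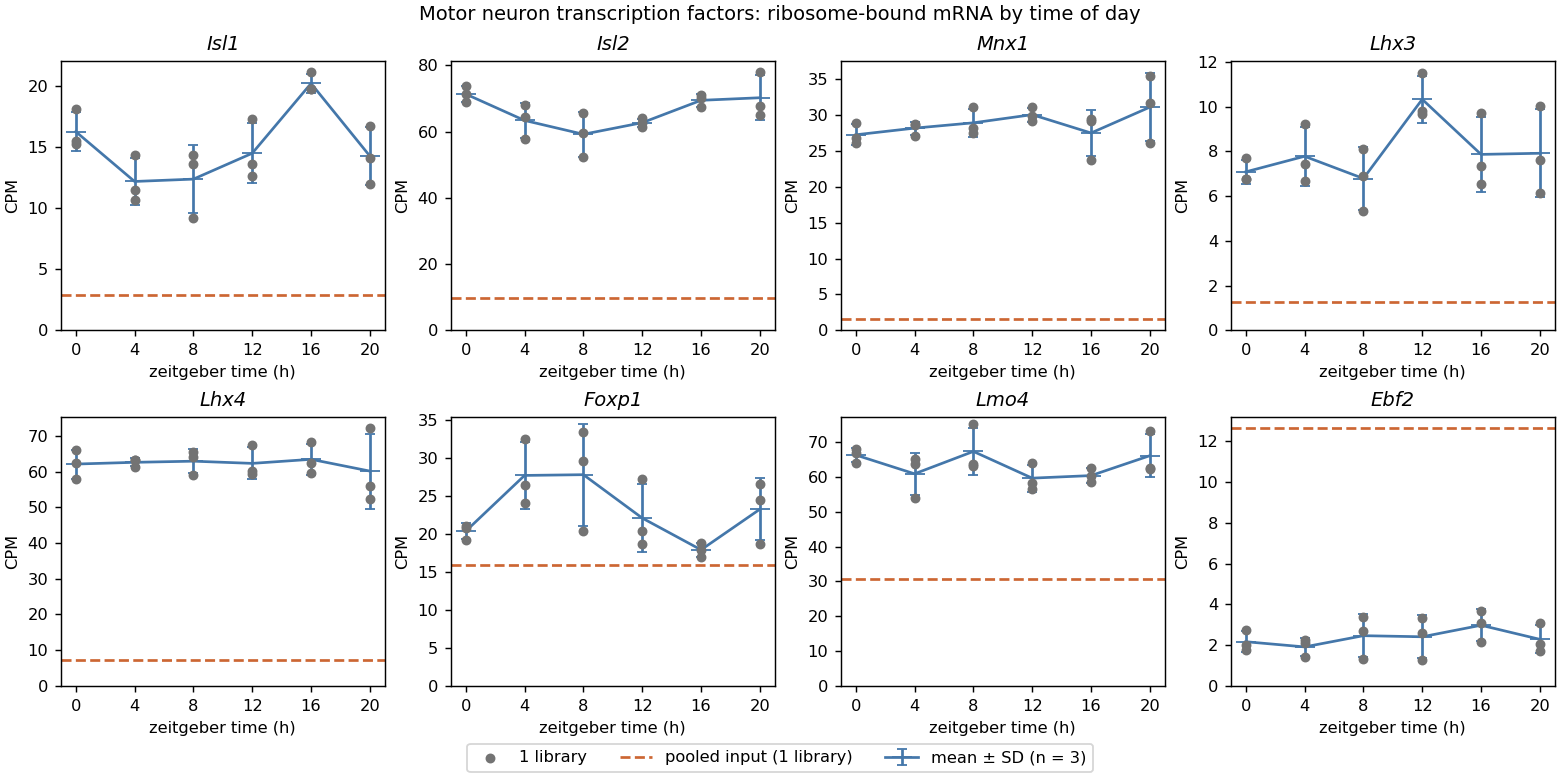
CPM of each factor in the 18 IP libraries by Zeitgeber time. Grey points are single libraries, blue lines mean ± SD of 3 libraries, the dashed line is the pooled input; Isl1 is highest at ZT16 and Foxp1 lowest there, Lhx3 is highest at ZT12, and Lhx4 runs flat.

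Isl1 was highest at ZT16, early in the dark phase. The 3 libraries stood at 19.8, 21.1 and 19.8 CPM at ZT16, and at 13.6, 9.21 and 14.3 at ZT8. At ZT0 they were at 18.1, 15.2 and 15.5 CPM, and at ZT4 at 14.4, 11.5 and 10.7. All 3 ZT16 libraries lay above all other 15, whose highest value was 18.1 at ZT0. The share of all genes with such a pattern was not counted. At ZT12 the values were 17.3, 12.6 and 13.6 CPM and at ZT20 14.1, 16.8 and 12.0. The highest time point mean was 1.66 times the lowest, and the median of this ratio over all genes tested was 1.45.

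Foxp1 ran the other way. At ZT16 its libraries were at 17.0, 17.9 and 18.8 CPM, the lowest mean of the 6 time points. At ZT4 they were at 24.1, 32.5 and 26.4, and at ZT8 at 20.4, 33.3 and 29.6 CPM. Replicates at ZT8 therefore spread widely, and replicate 1 stood near the ZT0 values of 20.8, 21.1 and 19.2. At ZT12 the values were 27.2, 20.4 and 18.7 CPM and at ZT20 18.7, 24.4 and 26.6, so ZT16 overlapped with both. The ratio of the highest to the lowest time point mean was 1.55.

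Of the 15 pairs of time points, only ZT16 against ZT8 called any of the 8 factors in edgeR. There 2 of 8 passed, against 16.9% of genes (9.11% higher and 7.80% lower), and 3 had an unadjusted p under 0.05, against 31.0%. Isl1 was higher at ZT16 by 0.70 on the log2 scale (SE 0.182, 95% interval 0.32 to 1.08, adjusted p = 0.0147). Foxp1 was lower, with a log2 change of -0.64 (SE 0.182, interval -1.02 to -0.27, adjusted p = 0.0211). Isl2 was the other factor with a low unadjusted p, at 0.22 (SE 0.105, adjusted p = 0.151). The ZT16 libraries lay wholly above the ZT8 libraries for Isl1 and Isl2, as for 14.0% of genes. They lay wholly below for Foxp1 and Lmo4, as for 13.1% of genes. DESeq2 called Isl1 and Foxp1 (adjusted p = 0.00391 and 0.00798). The edgeR calls were lost without some single libraries, while the directions stayed. Without ZT8 replicate 2, which held the lowest Isl1 and the highest Foxp1 value of all libraries, the changes were 0.53 (adjusted p = 0.103) and -0.49 (adjusted p = 0.146). Without ZT16 replicate 2 they were 0.67 (adjusted p = 0.0763) and -0.64 (adjusted p = 0.0906), and Foxp1 was also not called without ZT8 replicate 3 (-0.59, adjusted p = 0.08) or ZT16 replicate 1 (-0.60, adjusted p = 0.0876). The number of all genes called was 2633, and it was 87 without ZT8 replicate 2 and 72 without ZT16 replicate 2. In a fit of these 6 libraries alone neither gene passed, with log2 changes of 0.699 (adjusted p = 0.0851) and -0.647 (adjusted p = 0.0888), and 1 gene of all did. Summed excitatory neuron markers were lower at ZT16 (47.7 to 52.7 CPM) than at ZT8 (55.0 to 73.7) without overlap. Ranges that overlapped were those of astrocyte markers (164.8 to 205.2 CPM at ZT16 and 132.5 to 165.5 at ZT8), oligodendrocyte markers (1965 to 2903 and 1749 to 2010), inhibitory neuron markers (293.3 to 338.5 and 248.3 to 302.3) and cholinergic markers (4842 to 5178 and 4417 to 4872). The cholinergic sum is mostly Prph, while Chat, Slc18a3, Slc5a7 and Ache each rose from ZT8 to ZT16, as given below. The part of any of these cell types in the Isl1 and Foxp1 changes was not tested.

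**Figure D3:**
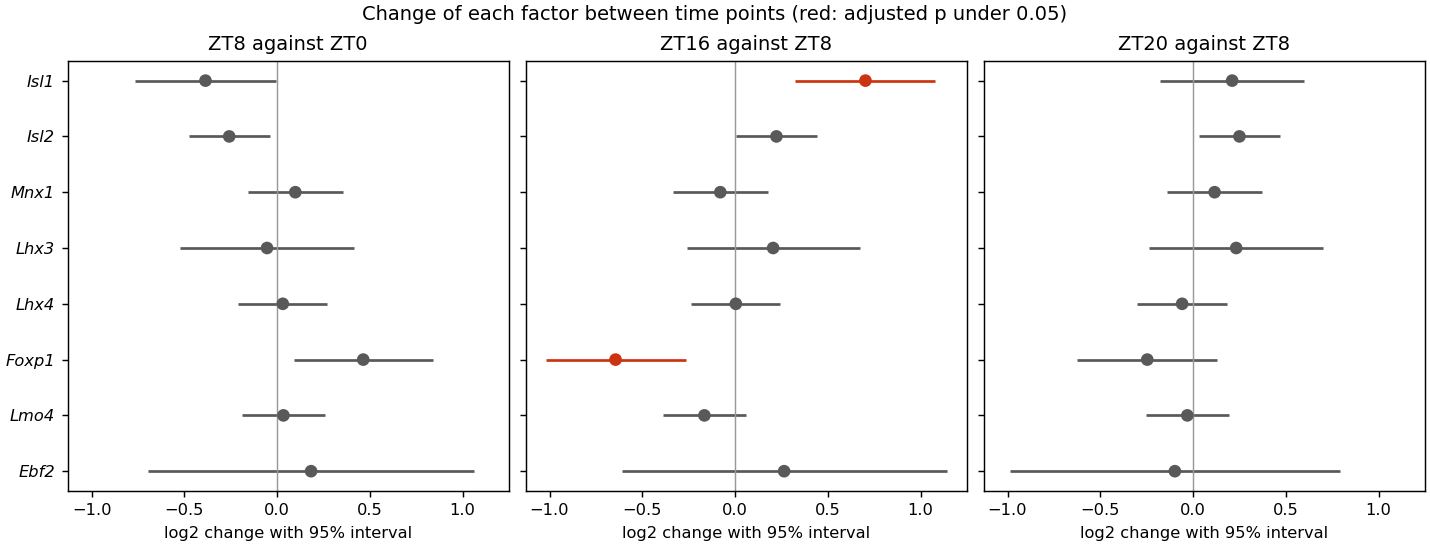
Log2 change of the 8 factors for ZT8 against ZT0, ZT16 against ZT8 and ZT20 against ZT8. Points are edgeR estimates with 95% intervals, red where the adjusted p is under 0.05; red appears only for Isl1 (0.70) and Foxp1 (-0.64) in ZT16 against ZT8.

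For ZT8 against ZT0, edgeR called none of the 8 (background 18.0%), and DESeq2 called none either. An unadjusted p under 0.05 was held by 3 of them, against 31.6% of genes. Foxp1 had a log2 change of 0.46 (SE 0.180, adjusted p = 0.0782), Isl2 of -0.26 (SE 0.104, adjusted p = 0.0913) and Isl1 of -0.39 (SE 0.183, adjusted p = 0.153). Without ZT8 replicate 1, 2 of the 8 were called, Foxp1 at 0.63 (adjusted p = 0.0115) and Isl2 at -0.36 (adjusted p = 0.0278). For ZT20 against ZT8, edgeR called none of the 8 and none of all genes, and DESeq2 none of the 8. Isl2 alone of the 8 had an unadjusted p under 0.05 there (0.0271, log2 change 0.25), against 22.3% of genes. Over the 15 pairs, 2 of 120 combinations of factor and pair were called, against 2.33% of all combinations of gene and pair, and 16 had an unadjusted p under 0.05, against 13.0%. Of all genes, 21.4% were called in at least 1 pair. The Isl1 difference of ZT16 from ZT4 was of the same size (0.72, SE 0.185) and was not called (adjusted p = 0.0822, background 0.0642%), nor was that of Foxp1 (-0.64, adjusted p = 0.0997). These pairs share the ZT16 libraries.

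Isl2 moved within a narrower range than Isl1. Its time point means ran from 59.2 CPM at ZT8 to 71.3 at ZT0, a ratio of 1.21. The ZT0 libraries stood at 71.2, 73.8 and 68.9 CPM and the ZT8 libraries at 65.7, 59.5 and 52.2. No pair was called, and the largest bound of any 95% interval over the 15 pairs was 1.39-fold. The ratio of Isl2 to Isl1 counts within a library, which does not depend on library scaling, was 4.58 ± 0.934 over the 18 IPs (SD). It was 3.43 ± 0.0965 at ZT16 (3.54, 3.36 and 3.40) and 5.29 ± 0.979 at ZT4. All ZT16 values were below those of the other 15 libraries, of which the lowest was 3.55. This ratio reuses the Isl1 counts described above, and the share of gene pairs with such a separation was not counted.

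Lhx3 was highest at ZT12, the start of the dark phase. Its ZT12 libraries were at 11.5, 9.66 and 9.81 CPM, and the means of the other time points ran from 6.79 (ZT8) to 7.92 (ZT20). Single libraries at ZT16 (9.73) and ZT20 (10.0) reached into the ZT12 range. The change from ZT8 to ZT12 was 0.60 on the log2 scale (SE 0.223) with an edgeR adjusted p = 0.134, so it was not called (background 0%). Its counts were 48 to 191 per library. Summed erythrocyte markers were also highest at ZT12 (603.1 to 756 CPM, and 210.7 to 435.2 at the other time points), and their part in the Lhx3 value was not tested.

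Lhx4, Mnx1 and Lmo4 were the steadiest. Lhx4 time point means lay between 60.2 and 63.5 CPM, a ratio of 1.05, and its CV over the 18 libraries was 7.59%. No 95% interval over the 15 pairs reached beyond a 1.23-fold change. The libraries ranged from 52.4 to 72.1 CPM, and both ends were at ZT20. Mnx1 means lay between 27.3 (ZT0) and 31.1 CPM (ZT20), with a CV of 9.02% and a largest bound of 1.39-fold. Lmo4 means lay between 59.7 (ZT12) and 67.3 CPM (ZT8), with a CV of 8.29% and a largest bound of 1.32-fold. Among genes within 0.5 log2 units of the same mean CPM, 4.53% had a lower CV than Mnx1, 7.68% a lower CV than Lhx4 and 13.6% a lower CV than Lmo4. The same share was 23.2% for Isl2, 37.3% for Lhx3, 75.6% for Isl1 and 83.9% for Foxp1. Ebf2 had a CV of 31.5%, a share of 22.2% and intervals that reached 2.95-fold, so at 12 to 58 counts per library changes up to that size between time points were not excluded.

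Isl1 and Foxp1 had Pearson's r = -0.659 and Spearman's rho = -0.527 over the 18 libraries, as a description of libraries that share their time points and scaling. Without the 2 libraries farthest from the Isl1 median r was -0.498, and over deviations from the time point means it was -0.175. The ratio of Isl1 to Foxp1 counts was 1.16, 1.18 and 1.05 at ZT16, above the other 15 libraries, which ran from 0.276 at ZT8 to 0.871 at ZT0. In the input it was 0.179. This ratio also reuses the counts described above, and the share of gene pairs with such a separation was not counted. Isl1 and Isl2 had r = 0.44 (rho 0.49), and 0.0377 over deviations from the time point means. Lhx3 and Lmo4 had r = -0.608 (rho -0.414), or -0.375 without the 2 farthest libraries and -0.531 over deviations. Lmo4 and Ebf2 had r = -0.519 (rho -0.61), or -0.483 without the 2 farthest libraries and -0.673 over deviations. Isl2 and Foxp1 had r = -0.551 (rho -0.416), or -0.63 and -0.331. Isl2 and Mnx1 had r = 0.277 (rho 0.222), or 0.0119 and 0.674, so the order of the pairs depended on the measure.

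**Figure D4:**
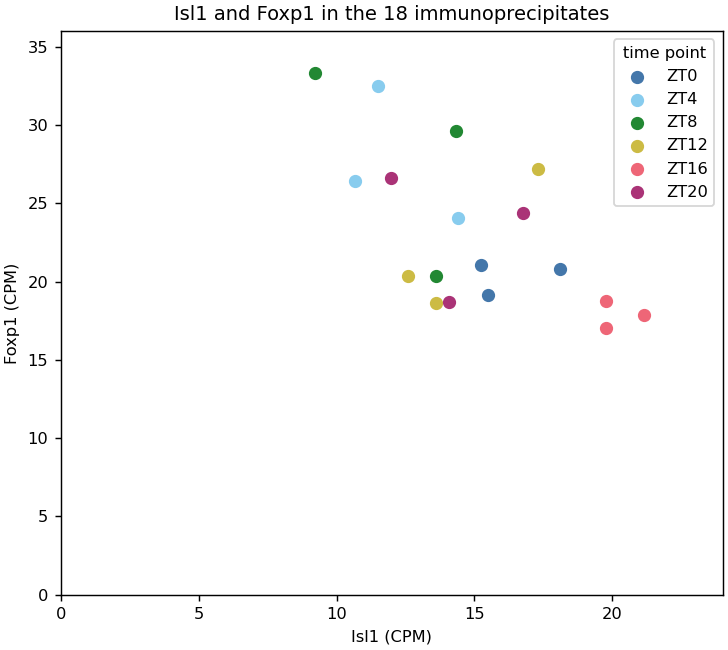
Isl1 against Foxp1 CPM in the 18 IP libraries, coloured by time point. The 3 ZT16 libraries lie at the lower right (Isl1 19.8 to 21.1, Foxp1 17.0 to 18.8 CPM) and ZT8 replicate 2 at the upper left (9.21 and 33.3).

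The genes most like each factor over the 18 libraries were ranked by Pearson's r of log2 CPM, as a description with shared libraries and scaling. For Isl1 these were Adcy2 (0.857), an adenylyl cyclase, Filip1 (0.845) and Rims2 (0.845), a protein of presynaptic release sites, and for Isl2 Gm2606 (0.851), Tpbg (0.851) and Jakmip2 (0.841). Foxp1 had the most company, with 530 of 15571 genes above r = 0.8, led by 2410004B18Rik (0.931), Fam174a (0.921) and Pdgfa (0.91), a growth factor subunit. Isl1 had 16 such genes, Isl2 26, Lmo4 4, Lhx3 1, Ebf2 1, and Mnx1 and Lhx4 0. The leading genes were Vps4b (0.843), Nkrf (0.822) and Fundc1 (0.811) for Lmo4, and Nle1 (0.808), Timm17b (0.796) and H2bu2 (0.788) for Lhx3. They were Fgfbp3 (0.75), Pole (0.677) and LOC118567938 (0.671) for Mnx1, Gm10182 (0.735), Slc39a13 (0.721) and Mbtps1 (0.719) for Lhx4, and Dcaf11 (0.813), Plxnb2 (0.76) and Gm46226 (0.726) for Ebf2.

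Cofactors of LIM proteins were less distinct from the input than the factors themselves. Of 9 cofactors, 1 was enriched (13.9% of all genes) and 2 were depleted (23.0%), with a median log2 ratio of -0.04. Lmo1, a LIM-only relative of Lmo4, had the highest log2 ratio at 1.60, and Lmo3 the lowest at -2.13. Ldb1, the scaffold of the Isl1 and Lhx3 complex, was at 94.2 ± 9.97 CPM (SD, n = 18) against 64.5 in the input, or 1.46-fold. Across the day, the edgeR cosinor called 2 of the 9 (background 6.24%), Ssbp3 (adjusted p = 0.0401), which stabilizes Ldb1, and Rlim (adjusted p = 0.0444), the ubiquitin ligase that targets Ldb1 for degradation. Ssbp3 was also called for any difference among time points (adjusted p = 0.0298, background 6.74%). DESeq2 called 2 of the 9 in the cosinor (20.9% of genes) and 3 for any difference (19.5%). An unadjusted p under 0.05 in edgeR was held by 3 and 4 of the 9, against 26.7% and 23.7% of genes. For ZT8 against ZT0, 2 rose and 1 fell, against 8.95% higher and 9.02% lower of all genes. For ZT16 against ZT8, 3 fell and 1 rose, against 7.80% lower and 9.11% higher of all genes. Ssbp3 (log2 change -0.45), Rlim (-0.446) and Lmo1 (-0.486) fell and Ssbp4 (0.832) rose. These 4 calls went to 0 without ZT8 replicate 2 or without ZT16 replicate 2, and to 1 (Ssbp3) without ZT8 replicate 3 or without ZT16 replicate 1.

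The close relatives of the 8 factors were mostly not enriched, as most genes were not. Of 14 paralogs, 12 passed the filter, with a median log2 ratio of -0.99. Of these, 1 was enriched (Lmo1, also among the cofactors), against 13.9% of all genes, and 6 were depleted, against 23.0%. All other members of the Ebf family were depleted like Ebf2, with log2 ratios of -1.92 for Ebf1, -2.24 for Ebf3 and -1.19 for Ebf4. Among LIM-homeodomain relatives, Lhx1, which marks the lateral part of the limb column in the embryo, was depleted at -4.94, and Lhx5 at -1.015. Foxp4 was at 0.65 and Foxp2 at -0.67, neither called. Over time, edgeR called none of the 9 tested relatives by the cosinor (background 6.24%) or for any difference among time points (6.74%). An unadjusted p under 0.05 was held by 1 and 2 of them, against 26.7% and 23.7% of genes. DESeq2 called 0 and 1, against 20.9% and 19.5%. For ZT16 against ZT8 it called 1 of 9 (Lmo1), against 16.9% of genes, and for ZT8 against ZT0 it called 2 (Lmo1, adjusted p = 0.0242, and Foxp4, adjusted p = 0.0456), against 18.0%.

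Of 7 motor neuron progenitor factors, 5 were depleted (23.0% of all genes), 1 was enriched and 1, Neurog2, was neither. The depleted genes included Olig2, the determinant of the progenitor domain that also persists in oligodendrocytes (log2 ratio -4.59), Nkx6-1 (-4.94) and Pax6 (-3.945). Irx3, which in the embryo borders the progenitor domain dorsally, was enriched at 45.4 ± 5.08 CPM (SD, n = 18) against 8.62, or 5.27-fold with all 18 IPs above the input. Of 9 column and pool factors, 7 passed the filter, 0 were enriched and 2 were depleted, Etv1 (-2.27), a pool factor, and Pou3f1 (-1.05). Aldh1a2, the retinoic acid enzyme of limb motor neurons, had the highest log2 ratio at 0.23. Of 15 spinal interneuron factors, 14 passed, 8 were depleted (23.0% of all genes) and 1 was enriched (13.9%), at a log2 ratio of 3.02. Lmx1b, of dorsal excitatory neurons, was lowest at -3.33. None of the 4 progenitor, 7 column and pool and 12 interneuron genes tested over time was called by edgeR in the cosinor, for any difference among time points or in ZT16 against ZT8. Of all genes, edgeR called 6.24%, 6.74% and 16.9% in these tests. An unadjusted p under 0.05 occurred for 0 of the listed genes in the cosinor (26.7% of all genes), 1 for any difference (23.7%) and 2 in ZT16 against ZT8 (31.0%). DESeq2 called 0, 1 and 1 of them, against 20.9%, 19.5% and 23.8% of all genes.

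**Figure D5:**
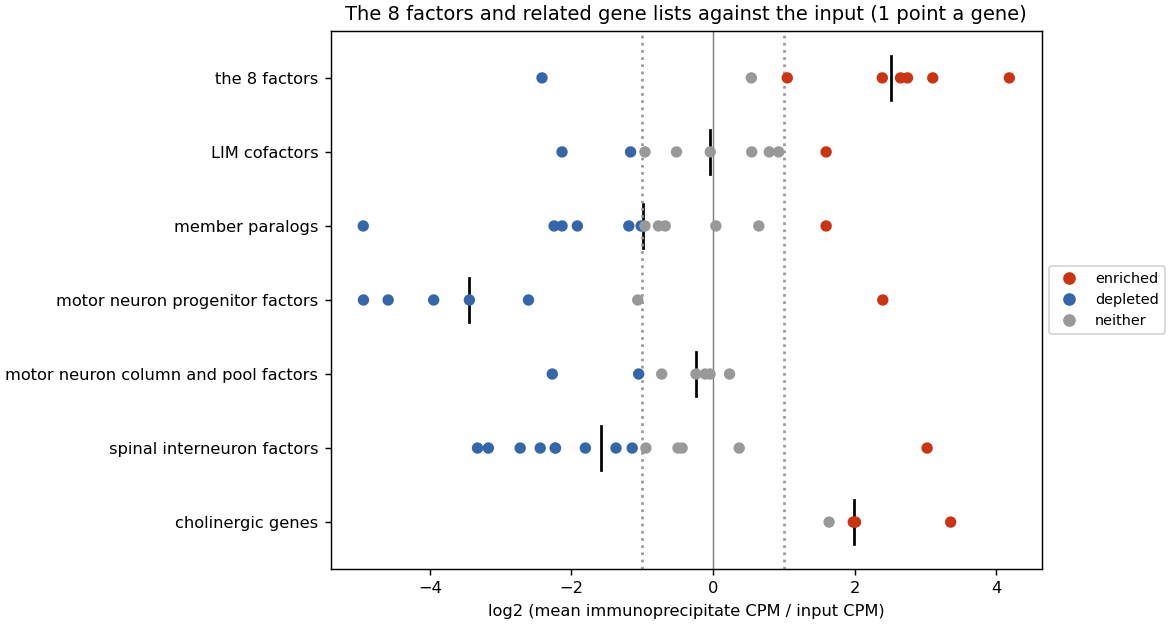
Log2 ratio of mean IP CPM to the input for the 8 factors and 6 lists of related genes, 1 point per gene that passed the filter. Red points are enriched, blue depleted and grey neither, black bars are list medians and dotted lines mark 2-fold; the 8 factors (median 2.52) and the cholinergic genes (median 2.00) have medians to the right of the other lists.

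The 4 cholinergic genes are textbook targets of the Isl1 and Lhx3 complex. Of them, 3 were enriched (13.9% of all genes). Slc18a3, the vesicular acetylcholine transporter, had the highest log2 ratio at 3.36, or 10.2-fold, and Chat, choline acetyltransferase, had the lowest at 1.64 with 17 of 18 IPs above the input. Ache, acetylcholinesterase, was at 2.01 and Slc5a7, the choline transporter, at 1.98. The edgeR cosinor called 1 of the 4, Slc18a3 (adjusted p = 0.0455, background 6.24%). For any difference among time points edgeR also called Slc18a3 alone (adjusted p = 0.0438, background 6.74%). DESeq2 called 3 of the 4 in the cosinor (20.9% of genes) and all 4 for any difference (19.5%). All 4 had an unadjusted p under 0.05 in both edgeR tests, against 26.7% and 23.7% of genes. For ZT16 against ZT8 all 4 rose, against 9.11% of genes, with log2 changes of 0.95 for Slc18a3 (adjusted p = 0.0107), 1.77 for Chat (adjusted p = 0.0115), 0.589 for Ache (adjusted p = 0.0452) and 0.537 for Slc5a7 (adjusted p = 0.0367). For ZT8 against ZT0 all 4 fell, against 9.02% of genes, and both comparisons share the ZT8 libraries. The Isl1 changes in the same pairs were 0.70 and -0.39, of which the first was called. Those of Lhx3 were 0.21 and -0.05, neither called. A link of either factor to the 4 genes was not tested. The 4 calls of ZT16 against ZT8 went to 0 without ZT8 replicate 2 or ZT16 replicate 2, to 1 (Chat) without ZT8 replicate 3 and to 2 (Chat and Slc18a3) without ZT16 replicate 1. Chat and Slc18a3 overlap in the genome, so the division of reads between them is less certain.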

How the data were processed

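PolyA RNA of 18 IP libraries and 1 pooled input was sequenced as paired-end reads. The authors aligned reads to mm10 with STAR 2.7.5 and quantified genes with RSEM, as the submitters' processing notes and the study's methods state. The deposited values are expected counts per gene, not normalized; RSEM divides reads that match several genes by a model, so paralogs and overlapping genes are less certain. Each of the 19 columns was assigned to its library from its header.

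Before testing, values were rounded and low genes removed by filterByExpr, leaving 15572 for the time tests (18 IPs) and 17901 for the input comparison. TMM scaling, the quasi-likelihood F-test of edgeR 4.0.16 (R 4.3.3) and DESeq2 1.42.0 as an alternative were used, with Benjamini-Hochberg adjustment over all genes at 0.05. All 18 IPs shared 1 fit. SEs came from the F statistic. JTK_Cycle was run on log2 CPM (prior count 2) with periods of 20, 24 and 28 h, exact null distributions and a Bonferroni correction over 18 templates within each gene. Printed CPM values use TMM over all 19 libraries. Input counts of 0 were set to 3. Depth was 6302150 to 22406844 counts per IP library, which gave the 8 genes 12 to 1483 counts per IP library.

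No library pair held identical values (0 of 171). Promoters and lengths are from RefSeq (GRCm38.p6) and GENCODE M21, whereas the study names another annotation for its counts. The tests were checked on simulated data. Genes named were the 8 factors, the 3 genes most like each, and the highest, lowest and called genes of each list, some of which are not reported here. Other list genes, such as Ldb1, Lhx5, the Foxp and Ebf relatives, Olig2, Pax6 and Pou3f1, were named after their values were seen. The 8 genes and all lists were chosen with earlier results of these data known. ZT8 against ZT0 and ZT16 against ZT8 were singled out because most called genes of those earlier results were in these pairs. Each pair was adjusted on its own. Alternatives were the scalings, count filters, a replicate block, DESeq2, fits of a pair alone, other JTK_Cycle periods and adjustments, and leaving out libraries. Leaving out libraries for the cofactor and cholinergic counts was chosen after seeing the data. Figures were drawn with matplotlib 3.10.9.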

Additional observations from a re-analysis of the deposited data

How the results depend on the processing

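The numbers of enriched (6) and depleted (1) factors stayed within 1.5 times under every scaling, fold rule and left-out library tried. Library totals shifted the median log2 ratio of all genes by -0.33, and the ratios to 2.06 for Isl1, 2.42 for Isl2, 3.86 for Mnx1, 2.32 for Lhx3, 2.77 for Lhx4, 0.21 for Foxp1 and 0.72 for Lmo4. JTK_Cycle called 3 factors with adjustment within the gene alone. DESeq2 called 2 in the cosinor and 2 for any difference among time points, and a filter of 1 count called 2 for the latter. For ZT16 against ZT8 the fit of the pair alone called 0. Leaving out 1 library or replicate number gave 0 to 2 factors in the cosinor, for any difference, for ZT8 against ZT0 and for ZT16 against ZT8, and 0 in JTK_Cycle and ZT20 against ZT8. The cause was not tested, beyond the fewer libraries in each fit.

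With the replicate number as a block, JTK_Cycle called 1 factor (Isl1) where it called 0 without, along with 356 of all genes against 6. Deviations of same-numbered libraries correlated at -0.151 to 0.176 (4 of 45 above 0.1), and those of differently numbered libraries at -0.21 to 0.183 (9 of 90). Whether the numbers mark a shared source was not tested. The block changed no other count of factors.

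Under library totals the ZT8 against ZT0 log2 changes of Lhx4 (-0.00609) and Lmo4 (-0.00524) reversed. Changes near 0 also reversed when single libraries were left out, with ranges for ZT8 against ZT0 of -0.217 to 0.0847 for Lhx3, -0.0218 to 0.0793 for Lhx4, -0.0619 to 0.0699 for Lmo4 and -0.125 to 0.481 for Ebf2. For ZT16 against ZT8 they were -0.124 to 0.0195 for Mnx1, -0.045 to 0.0563 for Lhx4 and -0.0403 to 0.566 for Ebf2. For ZT20 against ZT8 they were -0.216 to 0.0337 for Lhx4, -0.101 to 0.0574 for Lmo4 and -0.405 to 0.201 for Ebf2. Ebf2 had the fewest counts of the 8 (12 to 58 per library) and the widest intervals.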
